A study of Mus musculus with 12 samples.

Results

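Heat shock chaperones and their cochaperones, a set of 39 mouse genes, were described in osteoblasts and endothelial cells sorted from long bones with and without a growing breast tumor. The genes were chosen by name and not by a measured value, but with earlier results of these data known. A probe set that the platform annotation pairs with 1 symbol measured 36 of them, the brightest probe set standing for each gene, and 34 were bright enough to be tested, out of 14217 tested genes and 19937 measured genes. Hspb1, Cryab, Hspb2, Hspb6 and Hspb8 encode small heat shock proteins. Members of the Hsp70 family were Hspa1a, Hspa2, Hspa8, Hspa9, Hspa12b and Hspa14, and those of the Hsp110 family Hspa4, Hspa4l and Hsph1. Further members were Hsp90aa1, the mitochondrial chaperonin genes Hspd1 and Hspe1, the heat shock factor gene Hsf2, the J-domain genes Dnaja1, Dnaja2, Dnajb1, Dnajb4, Dnajb5 and Dnajb6, and the Bag genes Bag2 and Bag3. The set closed with the Hsp90 cochaperone genes Chordc1, Stip1 and Ahsa1, and the cytosolic chaperonin genes Cct2, Cct3, Cct4, Cct5 and Tcp1. No single-symbol probe set measured Hspa1b, Hsp90ab1 or Hsf1. Hspa12a exceeded the 40th percentile of its array on 1 array and Dnajb2 on 2 arrays, where 3 were required, so neither was tested.

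All 12 arrays came from female C57BL/6 mice, 3 arrays for each of 4 groups. Tumor-bearing mice had received 500000 EO771 cells, a mouse mammary carcinoma line, by intracardiac injection, and the tumor grew in the long bones for about 2 weeks. Tumor-free mice were the controls. Osteoblasts were sorted as CD51-positive cells lacking GFP, TR119, CD45, SCA1 and CD31. The endothelial gate took cells with SCA1 and CD31 on their surface and without GFP, TR119 or CD45. Bones of all groups were ground, digested with collagenase, dispase and DNase in the warm, and passed over a density gradient before the sort, and RNA of 5000 cells was amplified for each array. All values are log2 expression values of 1 probe set, so levels are compared between samples and never between genes, and values per array are listed in the order of replicates 1, 2 and 3.

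Heat shock proteins keep other proteins folded. When misfolded proteins accumulate, heat shock factor 1 binds repeated nGAAn units in promoters and switches on chaperone genes. Hsp70 proteins bind unfolded stretches under the control of J-domain proteins, which deliver substrates and trigger ATP hydrolysis, and of Hsp110 and Bag proteins, which release ADP. Hsp90 matures signalling proteins with its cochaperones, the TRiC ring folds actin and tubulin in the cytosol, Hsp60 with its Hsp10 lid folds proteins in mitochondria, and small heat shock proteins hold unfolded proteins without using ATP.

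Promoters are shown for members with a small p in osteoblasts by tumor, and they come first because the unit that heat shock factor binds can be read in them. RefSeq windows of assembly GRCm38.p6, from 250 bases before to 50 bases after the start of the gene, 300 bases in all, were at hand for 31 of the 39 genes. The motif searched was a pair of units facing each other, GAANNTTC or TTCNNGAA, each of which reads the same on both strands. A triple was counted where 1 pair of each kind overlapped, the second beginning 5 bases after the first. Some genes had several windows, and a gene was counted if any of its windows matched. At least 1 pair was found in 15 of the 31 genes, which is 48.4%, and in 17.0% of the 27025 genes with a window. A triple was found in 5 of the 31 genes, namely Chordc1, Dnajb6, Hspd1, Hspe1 and Hsph1, which is 16.1%, against 0.662% of all genes. Counted by window, a pair was found in 37.8% of the 45 windows of the members, against 15.1% of all 32851 windows. For a triple these shares were 15.6% and 0.603%. A match is a description of the letters, not of binding. The windows of 5 genes are printed 5′ to 3′ on the strand of the gene, with every base of a matched pair in capitals.
Hspe1 (chr1:55087898-55088197, plus strand): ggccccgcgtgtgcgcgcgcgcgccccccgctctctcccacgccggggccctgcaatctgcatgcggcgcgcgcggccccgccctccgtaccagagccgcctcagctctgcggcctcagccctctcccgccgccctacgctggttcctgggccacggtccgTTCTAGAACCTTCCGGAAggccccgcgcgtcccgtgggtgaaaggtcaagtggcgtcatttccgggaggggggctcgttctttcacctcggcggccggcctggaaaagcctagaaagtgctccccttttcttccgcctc
Hsph1 (chr5:149636266-149636565, minus strand): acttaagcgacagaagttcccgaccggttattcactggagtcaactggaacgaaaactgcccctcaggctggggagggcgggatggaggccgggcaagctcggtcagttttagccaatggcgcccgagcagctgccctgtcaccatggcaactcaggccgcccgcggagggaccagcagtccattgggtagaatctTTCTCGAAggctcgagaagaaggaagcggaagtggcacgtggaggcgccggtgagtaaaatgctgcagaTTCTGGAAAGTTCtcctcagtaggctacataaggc
Chordc1 (chr9:18292017-18292316, plus strand): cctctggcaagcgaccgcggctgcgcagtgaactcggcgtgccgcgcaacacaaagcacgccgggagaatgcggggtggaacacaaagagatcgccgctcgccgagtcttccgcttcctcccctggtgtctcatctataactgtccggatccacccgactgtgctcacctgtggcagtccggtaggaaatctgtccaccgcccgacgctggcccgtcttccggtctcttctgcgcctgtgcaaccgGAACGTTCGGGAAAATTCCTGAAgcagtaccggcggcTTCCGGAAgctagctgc
Hspb1 (chr5:135887669-135887968, plus strand): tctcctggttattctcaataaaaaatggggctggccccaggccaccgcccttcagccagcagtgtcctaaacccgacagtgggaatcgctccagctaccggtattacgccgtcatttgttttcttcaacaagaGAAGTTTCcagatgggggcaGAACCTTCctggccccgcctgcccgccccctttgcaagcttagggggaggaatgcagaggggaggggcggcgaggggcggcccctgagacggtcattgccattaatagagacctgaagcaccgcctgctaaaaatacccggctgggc
Dnaja1 (chr4:40722218-40722517, plus strand): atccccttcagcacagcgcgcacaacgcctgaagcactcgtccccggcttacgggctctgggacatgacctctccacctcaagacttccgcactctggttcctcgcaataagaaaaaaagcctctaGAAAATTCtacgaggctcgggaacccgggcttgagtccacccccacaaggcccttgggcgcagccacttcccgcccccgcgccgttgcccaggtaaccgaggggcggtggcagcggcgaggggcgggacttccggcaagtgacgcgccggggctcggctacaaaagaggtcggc
In the Hspe1 window the capitals form 1 run of 18 bases, and its first pair began 89 bases before the start. Hspd1 is read from the opposite strand, and its window on chr1:55087883-55088182 shares 285 bases with that of Hspe1, so both genes hold the same run, which on the strand of Hspd1 reads:
Hspd1: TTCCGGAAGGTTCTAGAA
Pairs in the Chordc1 window lay around the start and within the first transcribed bases. Those of Hspb1 began 117 and 97 bases before the start, and Dnaja1 held a single pair that began 124 bases before it. Over the genes tested, the median log2 difference between osteoblasts of tumor-bearing and tumor-free mice was 0.68 for the 5 genes with a triple and 0.46 for the 23 genes without one, both groups of genes being small. The lowest value among the genes with a triple was 0.01, that of Dnajb6, and the highest was 1.27, that of Hsph1.

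The sorted cells carried the markers of their labels. The median of 9 osteoblast markers lay between 10.06 and 10.51 in osteoblasts of tumor-bearing mice and between 10.41 and 10.90 in those of tumor-free mice, against 6.96 to 7.17 and 6.17 to 6.29 in endothelial cells of tumor-bearing and tumor-free mice. Sp7, the osteoblast transcription factor gene, was between 7.73 and 8.75 on the osteoblast arrays and between 5.51 and 6.18 on the endothelial arrays. Cdh5, which encodes VE-cadherin, was between 5.54 and 6.23 on the osteoblast arrays and between 11.39 and 11.91 on the endothelial arrays. Array pairs correlated at 0.886 to 0.954 over all probe sets. Replicate 3 of the osteoblasts carried the highest pan-haematopoietic marker median in both conditions, which did not hold for every blood cell list below. The median of 8 pan-haematopoietic markers was 6.07, 5.93 and 6.81 in osteoblasts of tumor-bearing mice, against 5.95, 5.87 and 6.80 in those of tumor-free mice. The median of 13 chondrocyte markers was 9.75, 10.04 and 7.98 in osteoblasts of tumor-bearing mice, against 8.34, 10.17 and 8.15 in those of tumor-free mice, so replicate 3 was low in the first group and replicate 2 was high in the second. Cell marker lists whose medians did not overlap between the osteoblast groups were those of neutrophils, erythroid cells, osteoclasts and epithelial tumor cells. The median of 11 neutrophil markers was 6.78, 6.39 and 6.23 in osteoblasts of tumor-bearing mice, against 6.88, 7.66 and 8.75 in those of tumor-free mice, and that of 7 erythroid markers was 6.57, 6.60 and 6.30 against 7.20, 6.79 and 7.12. The median of 7 osteoclast markers was 6.91, 6.90 and 7.05 in osteoblasts of tumor-bearing mice, against 6.65, 6.72 and 6.39 in those of tumor-free mice. Gene by gene, however, the median log2 difference of these 7 markers was -0.08, with quartiles of -0.11 and 0.27, so the markers did not rise as a set. That of 6 B and plasma cell markers overlapped, at 5.95, 6.51 and 6.28 in osteoblasts of tumor-bearing mice against 6.57, 6.34 and 6.68 in those of tumor-free mice. Krt8, 1 of 9 markers of epithelial tumor cells, was 6.95, 6.79 and 10.13 in osteoblasts of tumor-bearing mice and between 6.78 and 7.54 on the other arrays, whereas the median of the 9 markers was 5.98, 5.98 and 5.90 in osteoblasts of tumor-bearing mice, against 6.18, 6.00 and 6.27 in those of tumor-free mice. The part of these cells in the values below was not tested, and in sorted bulk RNA a different number of cells of a type cannot be told apart from a different amount of RNA per cell.

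The first question was whether heat shock genes differed in osteoblasts when the bone held a tumor. In these osteoblasts most heat shock genes had higher values than in osteoblasts of tumor-free mice, and Hspb1 and Hsph1 had the largest differences. None of the 34 genes passed limma's test after Benjamini-Hochberg adjustment over all genes, where 0.0352% of genes rose and 0.0211% fell. At an unadjusted p under 0.05, 17 of the 34 were higher and 0 lower, against 5.8% and 3.97% of all genes. When 1 osteoblast array was left out, 12 to 17 were higher. Without replicate 3 of the tumor-bearing mice, Dnaja2 was lower at that threshold (log2 difference -0.41, limma, unadjusted p = 0.0487). The 3 arrays of tumor-bearing mice all lay above those of tumor-free mice for 14 of the 34 genes, against 6.18% of all genes, and all lay below them for 0, against 8.36%. The log2 difference was above 0 for 30 of the 34 genes, against 46.7% of all genes, and its median was 0.48, against -0.02 over all genes. The 4 genes at or below 0 were Hsf2, Dnaja2, Dnajb5 and Hspa12b. Each of the 3 arrays is a sample that the labels call a biological replicate, and the p-values measure the spread between these arrays.

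**Figure D1:**
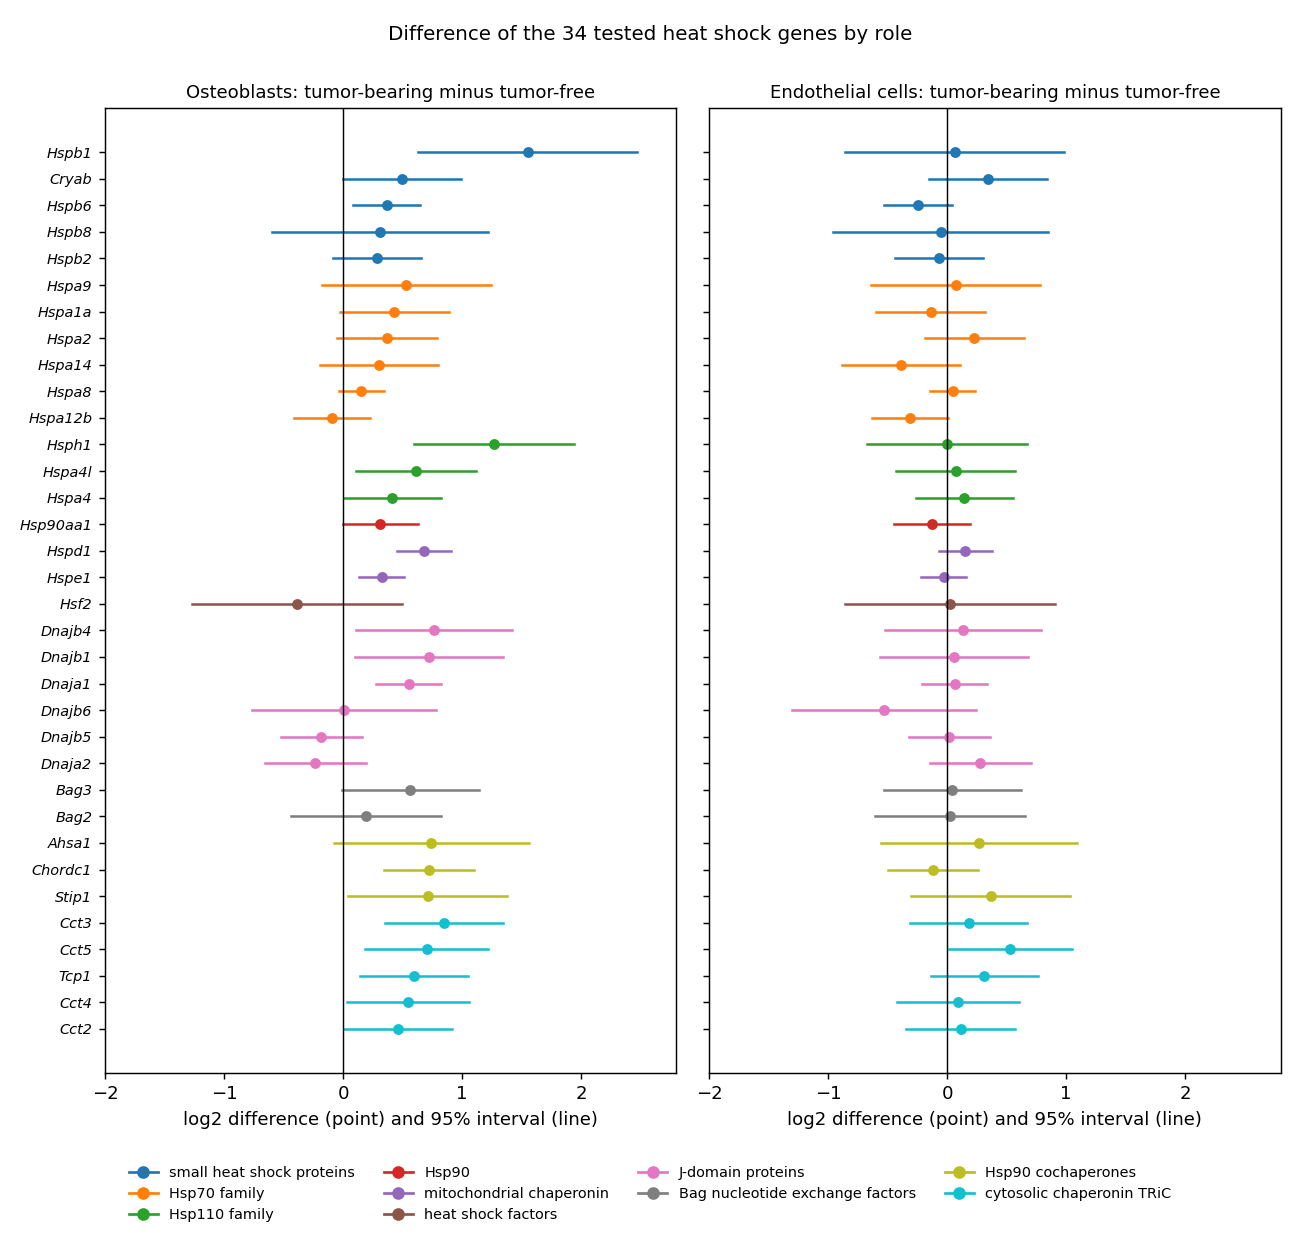
Log2 difference (horizontal axis, tumor-bearing minus tumor-free, n = 3 arrays a group) of the 34 tested genes, in rows by role, in osteoblasts on the left and endothelial cells on the right. Points are estimates and lines 95% intervals from limma, and the osteoblast values run from -0.39 for Hsf2 to 1.55 for Hspb1, while those of the endothelial cells run from -0.53 to 0.53.

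Among small heat shock proteins, 2 of 5 genes had an unadjusted p under 0.05, both with higher values. Hspb1 encodes Hsp27, an ATP-independent holdase that also binds actin filaments. It measured 9.61, 9.84 and 8.32 in osteoblasts of tumor-bearing mice, against 7.51, 7.46 and 8.15 in those of tumor-free mice. The groups did not overlap, but replicate 3 lay near the controls. The log2 difference was 1.55 ± 0.41 (SE, limma, adjusted p = 0.280). Without replicate 3 of both osteoblast groups, the difference of Hspb1 was 2.24 (limma, adjusted p = 0.0518). A second probe set of Hspb1 measured 9.20, 9.40 and 8.44 in osteoblasts of tumor-bearing mice, against 7.55, 7.70 and 7.16 in those of tumor-free mice, which are also separate. Hspb6, which encodes a small heat shock protein abundant in muscle, measured 6.998, 7.08 and 6.70 in osteoblasts of tumor-bearing mice, against 6.51, 6.57 and 6.60 in those of tumor-free mice, with a log2 difference of 0.37 (limma, adjusted p = 0.387). The differences of Cryab, which encodes αB-crystallin, Hspb8, a partner of Bag3, and Hspb2 were 0.49, 0.31 and 0.29, with overlapping groups. The value of Hspb8 turned with replicate 3, and was -0.13 without that array of the tumor-bearing mice and 0.74 without that of the tumor-free mice, and Hspb2 had 0.15 without the array of the tumor-bearing mice.

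Members of the Hsp70 family had a median difference of 0.34, and 0 of its 6 tested genes had an unadjusted p under 0.05. Hspa8, the constitutive cytosolic Hsp70, measured 12.40, 12.40 and 12.32 in osteoblasts of tumor-bearing mice, against 12.24, 12.24 and 12.19 in those of tumor-free mice. These values are separate but close, with a log2 difference of 0.15 (95% interval -0.04 to 0.34). Hspa1a, the stress-inducible Hsp70, measured 11.54, 11.69 and 11.09 in osteoblasts of tumor-bearing mice, against 11.02, 11.10 and 10.90 in those of tumor-free mice, and the highest control lay just above the lowest array of tumor-bearing mice (limma, log2 difference 0.43, adjusted p = 0.550). Without replicate 3 of the tumor-bearing mice the Hspa1a difference was 0.60 (limma, unadjusted p = 0.0154, adjusted p = 0.406), and a probe set that names both Hspa1a and Hspa1b gave 0.71. The mitochondrial Hsp70 gene Hspa9 measured 9.52, 9.44 and 10.56 in osteoblasts of tumor-bearing mice, against 8.90, 9.87 and 9.14 in those of tumor-free mice, with overlap, and its difference of 0.53 was 0.17 without replicate 3 of the tumor-bearing mice. Hspa12b, a distant Hsp70 relative known from endothelium, had a difference of -0.09.

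Hsp110 proteins, the exchange factors of Hsp70, all had higher values, with an unadjusted p under 0.05 for 3 of 3 genes. Hsph1, which encodes the stress-inducible Hsp105, measured 11.17, 11.34 and 10.98 in osteoblasts of tumor-bearing mice, against 9.95, 10.12 and 9.59 in those of tumor-free mice. All arrays of tumor-bearing mice were well above all controls, with a log2 difference of 1.27 ± 0.30, a 2.42-fold higher level (SE, limma, adjusted p = 0.211). Hspa4l had a difference of 0.61 without overlap, and Hspa4 a difference of 0.42 with overlap. Without replicate 3 of the tumor-bearing mice these were 0.49 and 0.19, and Hsph1 alone of the 3 genes kept an unadjusted p under 0.05.

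Hsp90aa1, the inducible cytosolic Hsp90, measured 11.82, 12.004 and 11.68 in osteoblasts of tumor-bearing mice, against 11.51, 11.52 and 11.52 in those of tumor-free mice. The groups did not overlap and the log2 difference was 0.31 (limma, unadjusted p = 0.0516). Its other probe sets disagreed in size, with 0.65 and 0.10, and the probe set with 0.10 had replicate 3 of the tumor-bearing mice at 10.01, below all 3 controls. Of the Hsp90 cochaperones, Chordc1 encodes CHORD-containing morgana, which binds Hsp90. Chordc1 measured 8.45, 8.58 and 8.66 in osteoblasts of tumor-bearing mice, against 7.73, 8.24 and 7.56 in those of tumor-free mice, with a log2 difference of 0.72 ± 0.17 (SE, limma, adjusted p = 0.211). The groups did not overlap. Stip1, the adaptor Hop that links Hsp70 to Hsp90, had a difference of 0.71, which was 0.49 and no longer had an unadjusted p under 0.05 without replicate 3 of the tumor-bearing mice, and Ahsa1, the activator of Hsp90's ATPase, one of 0.74. Ahsa1 measured 10.01, 9.64 and 10.25 in osteoblasts of tumor-bearing mice, against 8.24, 9.37 and 10.07 in those of tumor-free mice, a wide spread with overlap.

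Both mitochondrial chaperonin genes had tight values. Hspd1, which encodes Hsp60, measured 11.80, 11.77 and 11.73 in osteoblasts of tumor-bearing mice, against 10.99, 11.26 and 11.03 in those of tumor-free mice. The groups were far apart relative to their spread, and Hspd1 had the smallest p of all members, with a log2 difference of 0.68 ± 0.10 (SE, limma, adjusted p = 0.0647). It passed the threshold in 3 of 22 alternative settings, with adjusted p between 0.0421 and 0.458 (limma). Hspe1, which encodes the Hsp10 lid, measured 12.44, 12.35 and 12.28 in osteoblasts of tumor-bearing mice, against 12.01, 12.05 and 12.04 in those of tumor-free mice, with a difference of 0.32 ± 0.09 (SE, limma, adjusted p = 0.280). Again no array of 1 group reached the other. A second, dimmer probe set gave 0.49 for Hspd1 and 0.48 for Hspe1, with separate groups in both cases. That of Hspd1 missed an unadjusted p under 0.05 and that of Hspe1 did not (limma over all probe sets, unadjusted p = 0.0675 and 0.00303). The annotation pairs several single-symbol probe sets with Hspd1, Hspe1, Hspb1, Hspa8, Hsp90aa1 and Dnaja1. Dnajb6 had further probe sets that also name Gm4247. Heat shock genes have processed copies elsewhere in the genome, so which locus each probe set reads cannot be told from the annotation used here.

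**Figure D2:**
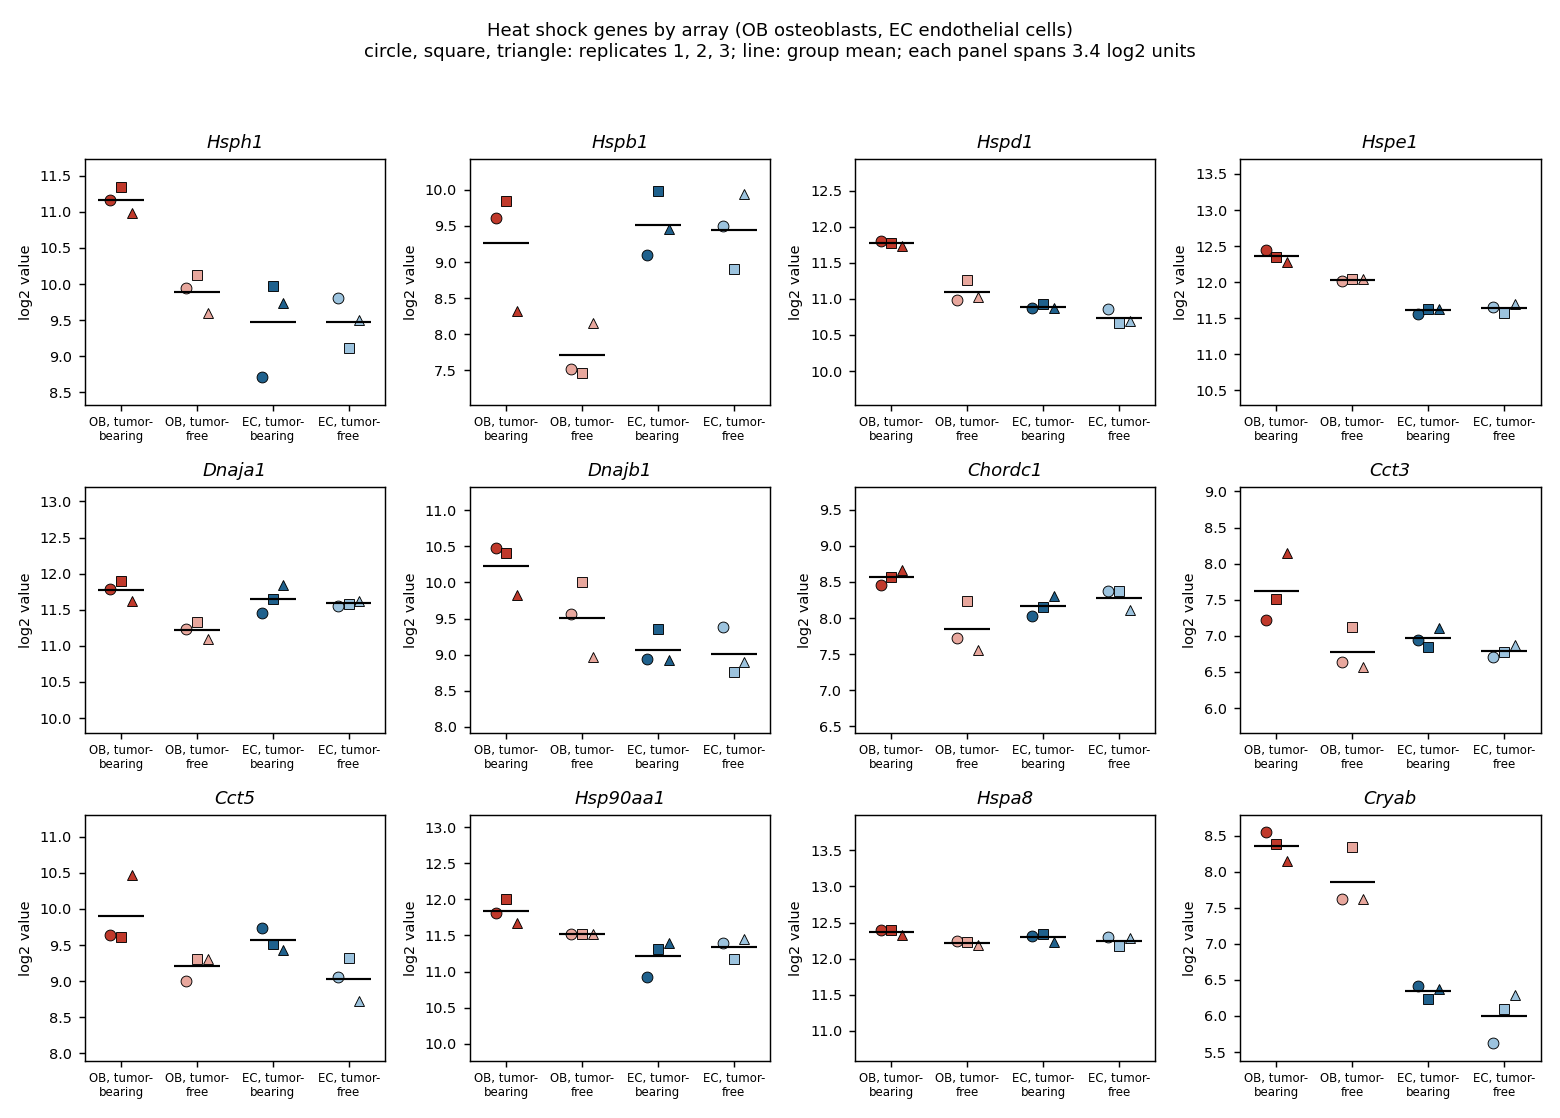
Log2 value (vertical axis) of 12 heat shock genes on each of the 12 arrays, with groups from left to right as osteoblasts and then endothelial cells, tumor-bearing left of tumor-free in each. Circles, squares and triangles are replicates 1, 2 and 3 and lines are group means; the arrays of osteoblasts from tumor-bearing mice lie above those of tumor-free mice for Hsph1, Hspd1 and Hspe1, and the Hspb1 triangle at 8.32 lies near the controls.

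J-domain genes split. Dnaja1, a partner of cytosolic Hsp70, measured 11.79, 11.90 and 11.62 in osteoblasts of tumor-bearing mice, against 11.23, 11.33 and 11.09 in those of tumor-free mice, without overlap. Its log2 difference was 0.55 ± 0.12 (SE, limma, adjusted p = 0.183), and a second probe set gave 0.44 with overlapping groups. Dnajb1, which encodes Hsp40, had a difference of 0.72 and Dnajb4 one of 0.76, both with an unadjusted p under 0.05 and both with overlap. Both missed that p without replicate 3 of the tumor-free mice, with differences of 0.45 for Dnajb1 and 0.55 for Dnajb4 (limma, adjusted p = 0.642 and 0.627). Differences of Dnajb6, Dnajb5 and Dnaja2 were 0.01, -0.18 and -0.23. Brighter probe sets that name both Gm4247 and Dnajb6 gave 0.18, 0.08 and 0.29. Bag3, an Hsp70 exchange factor of selective autophagy, measured 9.14, 9.03 and 8.15 in osteoblasts of tumor-bearing mice, against 8.04, 8.62 and 7.96 in those of tumor-free mice, with overlap and a difference of 0.57. Hsf2, a heat shock factor best known from development, measured 5.74, 6.25 and 6.43 in osteoblasts of tumor-bearing mice, against 5.94, 7.60 and 6.05 in those of tumor-free mice. The difference of -0.39 rested on the control at 7.60, and without that array it was 0.14.

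Subunits of TRiC, the cytosolic chaperonin ring, all had higher values with an unadjusted p under 0.05, 5 of 5, at a median of 0.60. Cct3 measured 7.22, 7.51 and 8.14 in osteoblasts of tumor-bearing mice, against 6.63, 7.13 and 6.57 in those of tumor-free mice, with a log2 difference of 0.85 ± 0.22 (SE, limma, adjusted p = 0.267). Cct5 measured 9.64, 9.61 and 10.47 in osteoblasts of tumor-bearing mice, against 9.01, 9.30 and 9.31 in those of tumor-free mice, with a difference of 0.70 ± 0.23 (SE, limma, adjusted p = 0.363). For both, replicate 3 of the tumor-bearing mice was the highest array. Cct2 measured 9.89, 9.90 and 10.67 in osteoblasts of tumor-bearing mice, against 9.72, 9.71 and 9.64 in those of tumor-free mice, again with that array on top. The median of the TRiC genes was 0.34 without replicate 3 of the tumor-bearing mice and 0.32 without replicate 3 of both osteoblast groups. In the first of these settings Cct2 and Cct4 had differences of 0.21 and 0.26 and missed the unadjusted p, which left Cct3, Cct5 and Tcp1. The 3 remaining measured subunits, named after their values were seen, had differences of 0.42 (Cct6a), 0.66 (Cct7) and 0.58 (Cct8).

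Within osteoblasts of tumor-bearing mice the members fell into opposite orders by array. Replicate 3 was the highest array for 18 of the 34 genes and the lowest for 16, against 36.2% and 35.9% of all genes. It was the highest for 5 of 5 TRiC genes, 3 of 3 Hsp90 cochaperone genes, Hspa4 and Hspa9. It was the lowest for Hspb1, Hsph1, Hsp90aa1, Hspd1, Hspe1, Dnaja1, Dnajb1, Dnajb4, Bag3, Hspa1a and Hspa8. The median SD of the members was 0.33 in this group, against 0.18 over all genes. Immediate early genes, which respond within minutes to many stimuli, were at their lowest in replicate 3 for 20 of 26 genes in osteoblasts of tumor-bearing mice and for 20 of 26 in those of tumor-free mice. The shares over all genes were 35.9% and 28.6%. An array that was lowest for most of these genes was also seen in endothelial cells, as given below. Replicate 3 of the osteoblasts of tumor-bearing mice held the high Krt8 and Ptprc values, Ptprc being 5.63, 5.52 and 7.28 in osteoblasts of tumor-bearing mice, against 5.83, 5.10 and 6.31 in those of tumor-free mice. How these features bear on the order of the chaperone genes was not tested. Without replicate 3 of both osteoblast groups, the median of the 34 genes was 0.38, and 14 were higher and 0 lower at an unadjusted p under 0.05.

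**Figure D3:**
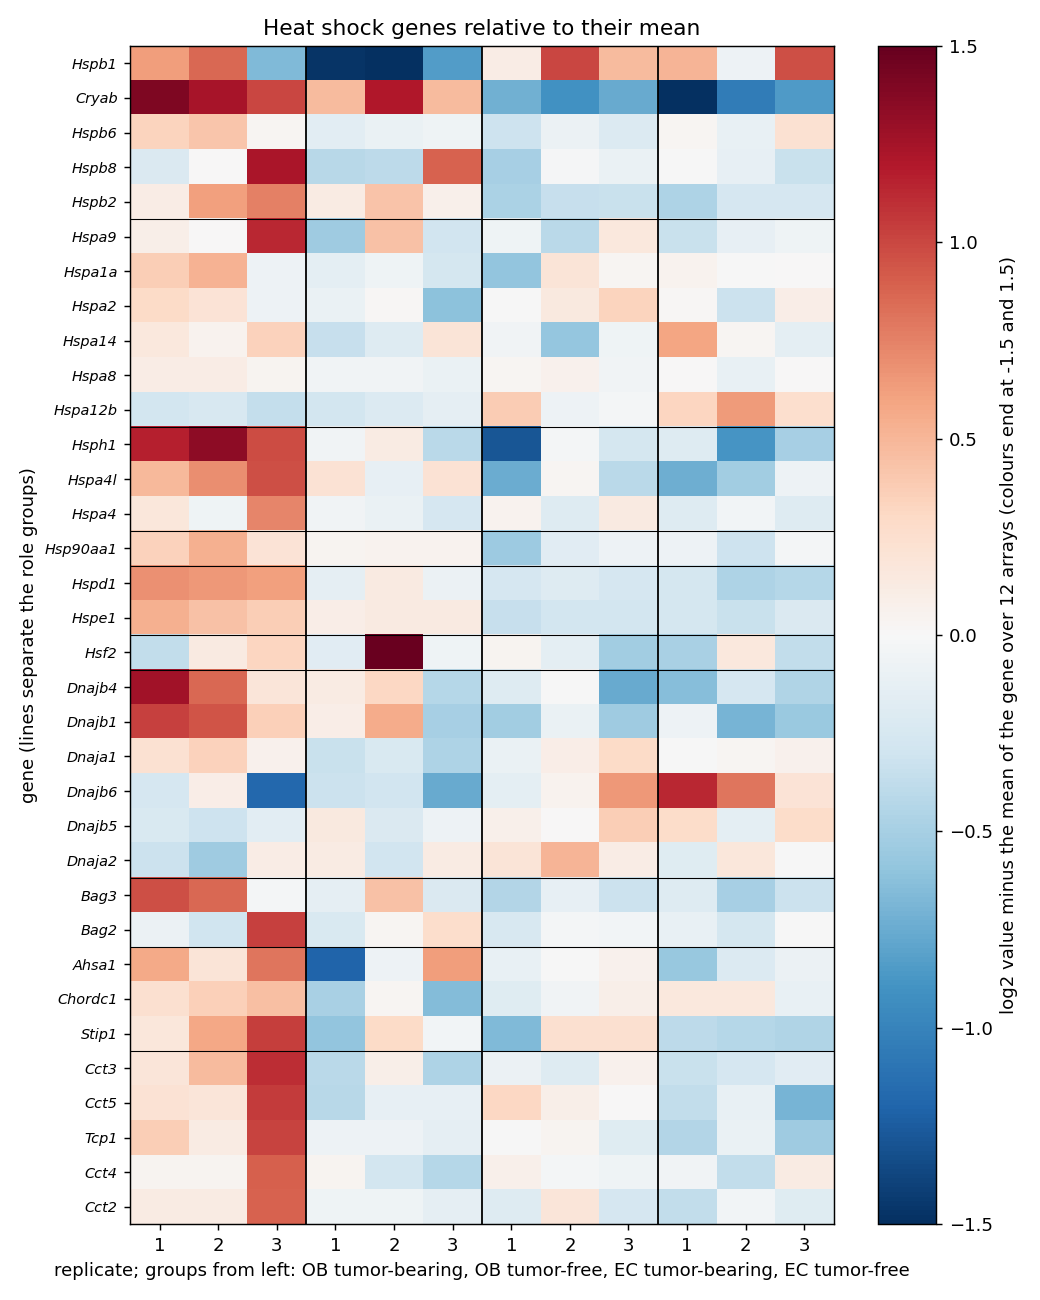
Log2 value of each tested gene minus its mean over the 12 arrays (colour), with genes in rows by role and arrays in columns, from left osteoblasts of tumor-bearing and tumor-free mice and endothelial cells of tumor-bearing and tumor-free mice. In the third column Cct2 to Cct5, Tcp1, Hspa4 and Hspa9 are at their highest, and Hspb1, Dnajb1, Dnajb4 and Bag3 are lower than in the first and second.

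The wider chaperone network was read beside these members. Of 64 further chaperone and cochaperone genes 60 were tested, and 0 passed the adjusted test with limma; 10 were higher and 1 was lower at an unadjusted p under 0.05, which is 16.7% and 1.67% of the list against 5.8% and 3.97% of all genes, with a median of 0.10. Ppid, an Hsp90-binding cyclophilin, measured 9.43, 9.80 and 10.01 in osteoblasts of tumor-bearing mice, against 8.57, 8.97 and 8.72 in those of tumor-free mice, with a difference of 0.99 (limma, adjusted p = 0.0747). Hspa13 had a difference of 1.23, and Pfdn2, a prefoldin subunit that hands substrates to TRiC, one of 0.91. Stub1, the ubiquitin ligase CHIP that disposes of Hsp70 substrates, had a difference of -0.41 (limma, adjusted p = 0.343). The list of 28 immediate early genes held 26 tested genes, at a median of 0.38. Of these, 23 had a difference above 0, against 46.7% of all genes. Among them Myc, which encodes a growth-promoting transcription factor, rose, with values of 10.34, 10.12 and 10.51 in osteoblasts of tumor-bearing mice, against 8.97, 9.22 and 8.49 in those of tumor-free mice (log2 difference 1.43, limma, adjusted p = 0.0415). Klf6, Fosl1 and Atf3 had differences of 0.52, 0.58 and 0.86.

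The same question was asked in endothelial cells. There the heat shock genes of tumor-bearing and tumor-free mice were close, with a median log2 difference of 0.06, against 0.01 over all genes. None of the 34 genes passed limma's adjusted test, where 0.0141% of genes rose and 0% fell. At an unadjusted p under 0.05, 1 gene was higher and 0 were lower, against 2.62% and 1.97% of all genes. The groups did not overlap for 2 genes, both higher in tumor-bearing mice, against 5.63% of all genes, and for 0 were they lower, against 4.87%. Differences above 0 numbered 24 of 34, against 51.4% of all genes, and without replicate 2 of the tumor-free or of the tumor-bearing mice the median turned to -0.013 or -0.020.

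Cct5 was the endothelial gene with the smallest p. It measured 9.74, 9.52 and 9.44 in endothelial cells of tumor-bearing mice, against 9.06, 9.32 and 8.73 in those of tumor-free mice, with a log2 difference of 0.53 ± 0.23 (SE, limma, unadjusted p = 0.0456, adjusted p = 0.9999). The other gene without overlap was Hspd1, at 10.87, 10.92 and 10.87 in endothelial cells of tumor-bearing mice, against 10.86, 10.66 and 10.69 in those of tumor-free mice. Its difference was 0.15 and the groups nearly touched, and the second Hspd1 probe set gave 0.44 with overlap. Tcp1 measured 8.64, 8.69 and 8.47 in endothelial cells of tumor-bearing mice, against 8.21, 8.55 and 8.11 in those of tumor-free mice. Both TRiC genes thus had positive differences, 0.53 and 0.31, and the TRiC median was 0.18.

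Some endothelial members had lower values. Hspa12b measured 6.55, 6.08 and 6.13 in endothelial cells of tumor-bearing mice, against 6.48, 6.80 and 6.42 in those of tumor-free mice, with a difference of -0.31. Dnajb6, a J-domain protein that holds back protein aggregation, measured 8.03, 8.23 and 8.83 in endothelial cells of tumor-bearing mice, against 9.31, 8.98 and 8.38 in those of tumor-free mice, with a difference of -0.53. Both had overlapping groups. Brighter probe sets that name both Gm4247 and Dnajb6 gave endothelial differences of -0.07, 0.04 and 0.02. Hspa14, a ribosome-associated Hsp70, measured 7.50, 6.96 and 7.48 in endothelial cells of tumor-bearing mice, against 8.14, 7.57 and 7.40 in those of tumor-free mice, with a difference of -0.39. Hspb6 measured 6.36, 6.58 and 6.46 in endothelial cells of tumor-bearing mice, against 6.69, 6.56 and 6.89 in those of tumor-free mice, with a difference of -0.25. Cryab, at 6.42, 6.24 and 6.38 in endothelial cells of tumor-bearing mice against 5.62, 6.09 and 6.29 in those of tumor-free mice, had a difference of 0.34. These 3 also overlapped. The intervals of these 5 differences all included 0. Hspb1 and Hsph1, which differed most in osteoblasts, had differences of 0.06 (95% interval -0.86 to 0.98) and 0.00 (95% interval -0.67 to 0.67) in endothelial cells. The osteoblast estimates lay above these intervals, but the osteoblast intervals, 0.63 to 2.47 and 0.60 to 1.94, overlapped them. The direct test of this contrast is given below. Hsph1 measured 8.72, 9.97 and 9.74 in endothelial cells of tumor-bearing mice, against 9.80, 9.12 and 9.501 in those of tumor-free mice. Chordc1 measured 8.03, 8.16 and 8.31 in endothelial cells of tumor-bearing mice, against 8.37, 8.37 and 8.11 in those of tumor-free mice. In both genes the groups overlapped, as they did for Hspe1, at 11.56, 11.63 and 11.63 in endothelial cells of tumor-bearing mice against 11.65, 11.58 and 11.69 in those of tumor-free mice. The brightest Hsp70, Hsp90 and J-domain genes overlapped too. Hspa8 measured 12.31, 12.35 and 12.23 in endothelial cells of tumor-bearing mice, against 12.29, 12.17 and 12.29 in those of tumor-free mice. Hsp90aa1 measured 10.93, 11.31 and 11.40 in endothelial cells of tumor-bearing mice, against 11.40, 11.17 and 11.45 in those of tumor-free mice. Dnaja1 measured 11.46, 11.65 and 11.85 in endothelial cells of tumor-bearing mice, against 11.56, 11.58 and 11.63 in those of tumor-free mice.

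Other gene lists in endothelial cells were read beside these. Among the immediate early genes, 23 of 26 had a difference above 0 in endothelial cells too, against 51.4% of all genes. Replicate 2 of the endothelial cells of tumor-free mice was the lowest control array for 22 of these 26 genes, against 39.6% of all genes. The median of the list lay between 8.53 and 8.73 in endothelial cells of tumor-bearing mice. In those of tumor-free mice it lay between 8.10, in replicate 2, and 8.51. How far the count of 23 rested on that array was not tested. Atf3 was at 0.82 and Klf6 at 0.39, and none of the 26 passed limma's adjusted threshold. In the wider chaperone list Dnajc13 had a difference of -1.72 (limma, adjusted p = 0.753) and Fkbp5, Hspa13 and Fkbp8 differences of 0.42, 0.62 and 0.27. The median of the osteoblast markers, given above, was higher in endothelial cells of tumor-bearing mice on all 3 arrays, and its part in these values was not tested.

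Whether the difference was larger in osteoblasts than in endothelial cells was tested as the difference between both tumor effects. None of the 34 genes passed limma's adjusted test, in which 0.0141% of genes were higher and 0.0141% lower. At an unadjusted p under 0.05, 7 genes had a larger effect in osteoblasts and 0 a larger one in endothelial cells, against 3.52% and 2.95% of all genes. The 7 were Hspb1, Hspb6, Hsph1, Hspd1, Hspe1, Dnaja1 and Chordc1. The median of the 34 differences was 0.45, against -0.02 over all genes, and 31 were above 0, against 47% of all genes. Hsph1 and Hspb1 had the largest differences of effect, 1.27 ± 0.43 and 1.49 ± 0.59 (SE, limma, adjusted p = 0.672 and 0.719). Chordc1 had 0.84, Hspb6 0.61, Hspd1 0.53 and Hspe1 0.35 (limma, adjusted p = 0.545, 0.594, 0.488 and 0.675). The second Hspd1 probe set gave a difference of effect of 0.06, so the value of Hspd1 depended on the probe set, whereas the second Hspb1 probe set gave 1.54. Second probe sets of Hspe1 and Dnaja1 gave 0.25 and 0.62 and missed the unadjusted threshold (limma over all probe sets, unadjusted p = 0.175 and 0.172). For the TRiC genes the median difference of effect was 0.35, and 0.09 without replicate 3 of the osteoblasts of tumor-bearing mice.

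**Figure D4:**
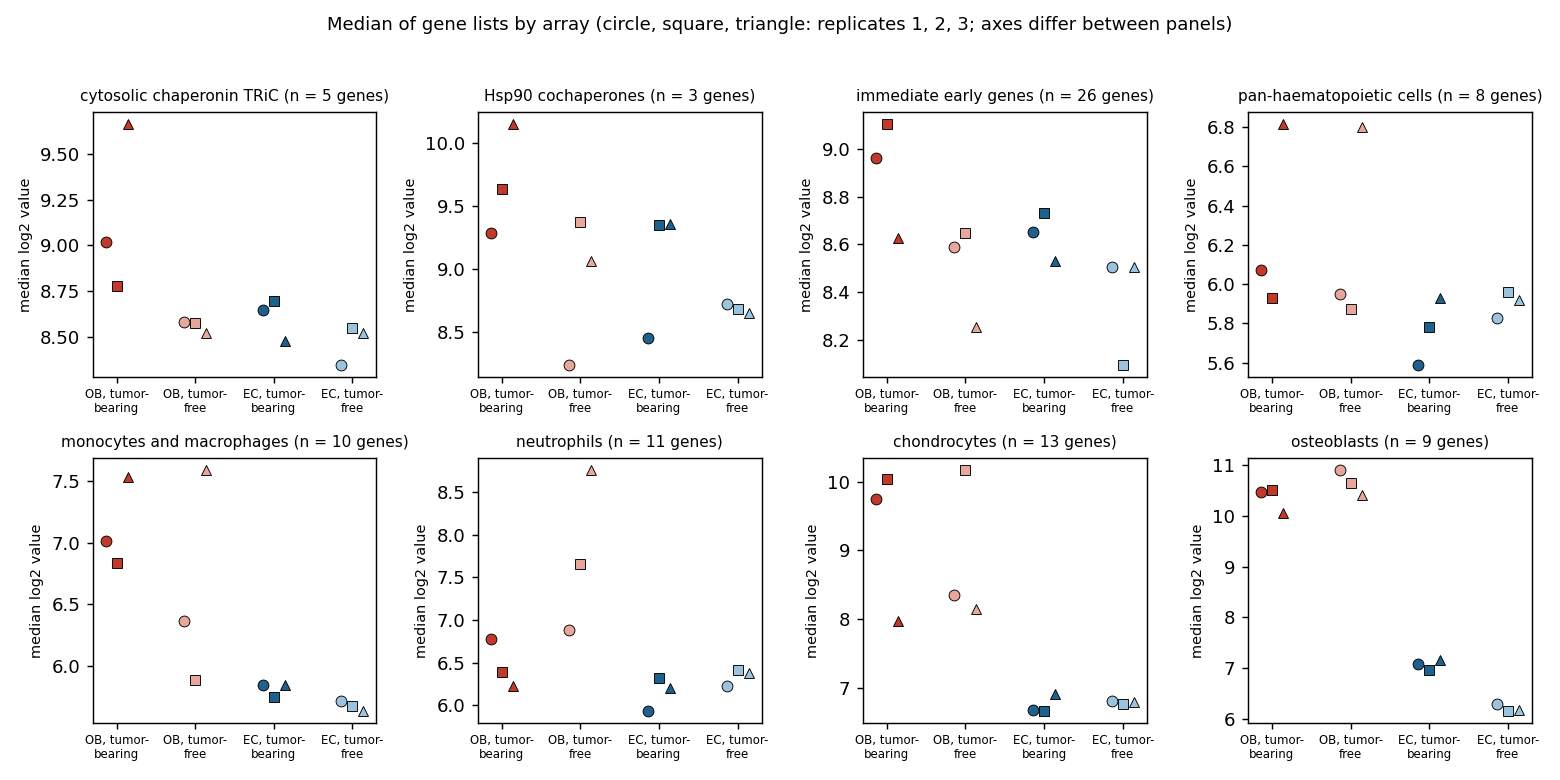
Median log2 value over the tested genes of 8 lists (vertical axis, scale differing between panels) on each array, groups ordered as osteoblasts then endothelial cells and tumor-bearing left of tumor-free. Circles, squares and triangles are replicates 1, 2 and 3; in osteoblasts the triangle is highest for TRiC genes of tumor-bearing mice (9.67) and for pan-haematopoietic markers in both conditions (6.81 and 6.80), and lowest for immediate early genes.

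The cell types differed in some heat shock genes in tumor-free bone. In tumor-free mice 5 of the 34 genes passed limma's adjusted test between osteoblasts and endothelial cells, 3 higher and 2 lower in osteoblasts, against 5.38% and 7% of all genes. Cryab measured 7.62, 8.35 and 7.62 in osteoblasts, against 5.62, 6.09 and 6.29 in endothelial cells, and was 3.63-fold higher (limma, log2 difference 1.86 ± 0.22, SE, adjusted p = 0.000322). Hspe1 and Hspd1 were higher in osteoblasts of tumor-free mice by 0.40 and 0.35 (limma, adjusted p = 0.0119 and 0.0463). Hspd1 passed in 4 of 22 alternative settings. Hspb1 was lower in osteoblasts of tumor-free mice, at 7.51, 7.46 and 8.15 against 9.49, 8.91 and 9.95 in endothelial cells, with a log2 difference of -1.74 ± 0.41 (SE, limma, adjusted p = 0.0195). Its second probe set gave -1.44. Hspa12b was also lower, at 5.89, 5.96 and 6.03 in osteoblasts against 6.48, 6.80 and 6.42 in endothelial cells, with a difference of -0.61 (limma, adjusted p = 0.0194). At an unadjusted p under 0.05, 5 genes were higher and 5 lower in osteoblasts of tumor-free mice, against 10.5% and 12.9% of all genes, and 20 of 34 differences were above 0, against 49.1%. Of the genes next in order of p, Dnajb6 measured 7.85, 7.89 and 7.42 in osteoblasts of tumor-free mice, against 9.31, 8.98 and 8.38 in endothelial cells (limma, log2 difference -1.17, adjusted p = 0.0548). Dnaja1 and Hspb2 had differences of -0.37 and 0.53 (limma, adjusted p = 0.0819 and 0.0686). No array of 1 cell type reached the other for these 3 genes. For Dnajb6, the brighter probe sets that also name Gm4247 gave differences of -0.46, -0.35 and -0.72.

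In tumor-bearing mice 10 of the 34 genes were higher in osteoblasts and 0 lower by limma's adjusted test, against 4.89% and 5.68% of all genes. At an unadjusted p under 0.05, 15 were higher and 3 lower, against 10.8% and 11.9% of all genes, and 28 of 34 differences were above 0, against 44.4%. The groups of this comparison and of that in tumor-free mice share no array, but both tests use the spread estimated over all 12 arrays. The gap between both comparisons is the difference of effects above, in which no member passed. Cryab was 4.03-fold higher in osteoblasts, at 8.54, 8.38 and 8.14 against 6.42, 6.24 and 6.38 in endothelial cells (limma, adjusted p = 0.000202). Hsph1 was 3.22-fold higher, at 11.17, 11.34 and 10.98 in osteoblasts against 8.72, 9.97 and 9.74 in endothelial cells (limma, adjusted p = 0.00469). Hspb2 measured 6.67, 7.16 and 7.31 in osteoblasts, against 6.08, 6.21 and 6.21 in endothelial cells. Hspa4l measured 7.71, 7.93 and 8.20 in osteoblasts, against 6.49, 7.26 and 6.83 in endothelial cells. Dnajb1 measured 10.48, 10.41 and 9.82 in osteoblasts, against 8.94, 9.35 and 8.92 in endothelial cells. The cell types did not overlap for any of these 5 genes. Hspd1, Hspe1, Hspb2 and Hspa4l were higher by 0.88, 0.75, 0.88 and 1.09 on the log2 scale (limma, adjusted p = 0.000258, 0.000248, 0.00633 and 0.0110). Hsp90aa1 and Dnajb1 were higher by 0.62 and 1.16, and so were Dnajb4 and Hspb6, named because they passed, by 1.08 and 0.46. Hspb1 measured 9.61, 9.84 and 8.32 in osteoblasts of tumor-bearing mice, against 9.09, 9.98 and 9.46 in endothelial cells, and these overlapped, with a log2 difference of -0.25 (95% interval -1.17 to 0.67). At the threshold of a fold change of at least 2, 5 of the 10 were counted, Cryab, Hspa4l, Hsph1, Dnajb1 and Dnajb4.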

How the data were processed

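RNA of 5000 sorted cells per array was amplified and hybridised, per the labels' protocols, for 12 arrays in 4 groups. The deposited values are log2 expression values, processed by the authors with the package affy per the submitters' processing notes; for its version and summary method, not given in the sources used here, no assumption was made, and the authors' normalization was kept. Array medians lay between 5.95 and 6.04. Whether amplification or array background changed any value was not tested. The number of arrays limits the precision.

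Of 34760 probe sets, 21640 had 1 gene symbol, 1321 several and 11799 none; the symbols of 21553 probe sets matched RefSeq GRCm38.p6. The brightest single-symbol probe set stood for a gene. A gene was tested if above the 40th percentile of the array on at least 3 of the 12 arrays. A model with 1 coefficient per group was fitted over all arrays and genes in R 4.3.3 by limma 3.58.1, the labels being read with jsonlite 2.0.0, and with eBayes (prior degrees of freedom 2.36), two-sided p and Benjamini-Hochberg adjustment over the 14217 genes at 0.05. The fit was tested on simulated data.

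Values per array were given for the 8 members with the smallest p in each tumor and each cell type comparison, the 5 in the difference of effects and the brightest member of each of 10 role groups (some only in the groups a comparison concerns). From the 2 wider lists up to 4 genes per tumor comparison were named. The members and lists were chosen with earlier results of these data known. Alternatives changed the normalization, the filter, the probe sets, the moderation, array weights, the replicate block, the samples fitted and the threshold, and left out arrays. The labels do not say whether arrays of both cell types share mice.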

Additional observations from a re-analysis of the deposited data

How the results depend on the processing

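The count of heat shock genes called in osteoblasts by tumor was 0, and 1 (Hspd1) with no filter on dim genes or with trend and robust moderation, and 0 to 1 when each array was left out. Their median was 0.48, 0.38 without replicate 3 of both osteoblast groups, and 0.41 to 0.50 with 1 array left out. In endothelial cells the count was 0 in all settings run, and the median of 0.06 ranged from -0.020 to 0.11, being -0.020 without replicate 2 of the tumor-bearing and -0.013 without replicate 2 of the tumor-free mice. The difference of effects had a count of 0 throughout and a median of 0.45, which was 0.34 with array weights, 0.33 without replicate 3 of both osteoblast groups and 0.29 to 0.47 with 1 array left out. Between cell types of tumor-free mice the count was 5, 2 with a fold change of at least 2 and 2 to 5 with 1 array left out, at a median of 0.09 (0.011 to 0.22). In tumor-bearing mice it was 10, 5 with that fold change and 6 to 12 with 1 array left out, at a median of 0.46, 0.32 without replicate 3 of both osteoblast groups and 0.32 to 0.55 with 1 array left out. The cause of these shifts was not tested. Over all genes the osteoblast tumor comparison called 8 genes, 0 with only the groups compared and 45 without replicate 3 of both osteoblast groups. Each member chosen by its p kept its sign in all of its 22 alternatives, or 21 for the difference of effects. Of the other members in osteoblasts by tumor, Hspb8 (0.31) and Bag2 (0.19) turned to -0.13 and -0.21 without replicate 3 of the tumor-bearing mice. Dnajb6 (0.01) turned to -0.14 without replicate 3 of the tumor-free mice, and Hsf2 (-0.39) to 0.14 without replicate 2 of the tumor-free mice. Same-numbered arrays correlated at -0.05 to 0.07 in their deviations from the group means. With 3 arrays a group, these values cannot tell whether same-numbered arrays are paired. With the replicate number as a block, the counts were 0, 0, 0, 5 and 9 for the comparisons in the order above. The 3 arrays a group limit what can be called.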
